A study of Mus musculus with 5 samples.

Results

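The perirenal fat pad (labelled NWAT) was represented here by 6783 adipocyte nuclei, 53.1% (95% exact binomial interval 52.2% to 53.9%) of the 12780 NWAT nuclei that passed the quality filters and part of 75891 such nuclei in the series. A nucleus was taken as an adipocyte nucleus when it had at least 200 detected genes, at most 10% mitochondrial UMIs, at least 5 UMIs over Acvr1c, Slc1a3, Fam13a, Nrg4, Tenm4, Ghr, Plin1 and Acsl1 with at least 3 of these 8 genes detected, and at most 1 UMI over 9 genes of other cells (Flt1, Ptprb, Pdgfra, Mrc1, F13a1, Upk1b, Bank1, Skap1 and Myh11). A UMI is a molecular tag that lets each captured RNA molecule be counted once. The study made single-nucleus RNA libraries (10x Genomics 3′ chemistry) from white fat of wild-type, chow-fed male mice aged 10 weeks that had been perfused with heparin. NWAT was set against 4 other depots, named here as the labels name them: subcutaneous SWAT, epididymal EWAT, mesenteric MWAT and HWAT, the depot around the heart. Each depot was a single pooled library, of 6 mice for NWAT, 6 for SWAT, 6 for EWAT, 10 for MWAT and 20 for HWAT. Lymph nodes were cut out of SWAT and MWAT only. The protocol text names C57BL/6J for all mice, while the strain field reads C57BL/8J for NWAT, C57BL/7J for MWAT and C57BL/9J for HWAT.

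White adipocytes store fatty acids as triglyceride in a single large droplet and release them under catecholamine control, and they secrete hormones such as adiponectin and leptin. Visceral and subcutaneous pads arise from different parts of the embryonic mesoderm, and their adipocytes keep expressing Hox and other patterning transcription factors that record position along the body. Perirenal fat lies on the posterior body wall around the kidney, and parts of it pass through a brown-like stage early in life.

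The promoters below belong to genes on which the results turn, read from RefSeq on GRCm38 as the 250 bases before the annotated start, 5′ to 3′ on the gene's strand, with each CG dinucleotide in capitals. Ofcc1 and Arfgap2 stand for genes higher in NWAT adipocyte nuclei than in every other depot, Hoxa9 for the HoxA genes shared with SWAT, Hoxb4 for the HoxB genes low in NWAT, and Nnat for a gene that varied widely between single nuclei.
Ofcc1: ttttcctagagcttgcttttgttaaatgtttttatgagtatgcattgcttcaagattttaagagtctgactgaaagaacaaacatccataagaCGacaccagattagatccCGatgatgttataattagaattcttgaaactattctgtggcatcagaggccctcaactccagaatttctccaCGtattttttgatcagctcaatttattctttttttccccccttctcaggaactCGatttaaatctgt
Arfgap2: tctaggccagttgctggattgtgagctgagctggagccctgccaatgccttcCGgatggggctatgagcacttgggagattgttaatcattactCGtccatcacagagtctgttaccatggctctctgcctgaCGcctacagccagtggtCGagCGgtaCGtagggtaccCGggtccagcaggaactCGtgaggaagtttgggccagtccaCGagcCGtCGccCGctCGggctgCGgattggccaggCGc
Hoxa9: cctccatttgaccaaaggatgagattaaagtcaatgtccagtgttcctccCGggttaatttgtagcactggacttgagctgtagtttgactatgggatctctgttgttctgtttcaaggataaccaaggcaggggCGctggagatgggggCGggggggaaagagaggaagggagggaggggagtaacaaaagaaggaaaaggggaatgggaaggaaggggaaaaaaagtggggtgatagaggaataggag
Hoxb4: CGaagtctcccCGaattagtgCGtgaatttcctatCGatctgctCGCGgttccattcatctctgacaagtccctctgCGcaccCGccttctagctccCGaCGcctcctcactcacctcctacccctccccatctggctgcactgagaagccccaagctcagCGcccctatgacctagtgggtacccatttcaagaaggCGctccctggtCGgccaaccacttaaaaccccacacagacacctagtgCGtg
Nnat: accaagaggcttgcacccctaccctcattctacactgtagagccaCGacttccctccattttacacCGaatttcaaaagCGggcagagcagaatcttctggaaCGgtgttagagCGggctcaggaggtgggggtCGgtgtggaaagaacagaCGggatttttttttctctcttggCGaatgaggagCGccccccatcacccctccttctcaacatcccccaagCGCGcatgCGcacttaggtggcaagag
The windows lie at chr13:40288012-40288261 on the minus strand (Ofcc1), chr2:91264865-91265114 on the plus strand (Arfgap2), chr6:52227371-52227620 on the minus strand (Hoxa9), chr11:96318017-96318266 on the plus strand (Hoxb4) and chr2:157559828-157560077 on the plus strand (Nnat). In the GENCODE vM21 annotation the Ofcc1 gene spans chr13:40001882-40361450 and Hoxa9 chr6:52223100-52231089, so both windows lie inside the longer annotated genes. Arfgap2 spans chr2:91264974-91276931 there, so the later part of its window also lies inside the annotated gene. The CG count was 4 in the Ofcc1 window and 3 in that of Hoxa9, below the median of 6 (quartiles 2 and 16) over 32851 annotated mouse starts. It was 15 for Arfgap2, 14 for Hoxb4 and 12 for Nnat. A CCAAT box, searched on both strands, was present in the Arfgap2 window, and 33.8% of all windows of this length hold it, while TATAAA was in none of the 5 printed windows and in 12.4% of all.

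Levels are given as counts per 1000000 (CPM), the UMI count of a gene summed over a set of nuclei per 1000000 of their summed UMIs; with no correction for length, CPM compares a gene between depots and not genes with each other. The values that chose the nuclei are a description and no finding. The 8 marker genes gave a median of 70 UMIs per nucleus, and 63.3% of the nuclei had all 8 detected. Inside the limits, the 64 nuclei with 5 marker UMIs had 2179 CPM of Adipoq, against 2188 CPM in the 105 nuclei just outside with 4. The 729 nuclei with 1 other-cell UMI had 1832 CPM of Adipoq, against 1626 CPM in the 210 nuclei kept out by having 2. Adipoq, which encodes adiponectin, and Cidec, a droplet fusion protein, were outside the rule and stood at 1875 and 2946 CPM. In the 5997 other NWAT nuclei they had 938 and 779 CPM. These other nuclei include 776 that met the marker limits but had more than 1 other-cell UMI. After thinning every nucleus to 1000 UMIs, 79.8% of the NWAT adipocyte nuclei had an Adipoq UMI, against 35.5% of 558 NWAT nuclei of endothelial type (at least 5 UMIs over Flt1 and Ptprb and under 5 over the adipocyte markers). Without thinning these shares were 96.2% and 55.6%. Before thinning, nuclei of endothelial type numbered 577 in NWAT, 266 in SWAT, 874 in EWAT, 379 in MWAT and 58 in HWAT. Depot differences given below for this type thus rest on few nuclei in HWAT. Most lists of other-cell genes were low, but not all. The summed CPM of 8 endothelial markers outside the rule was 3.85% of that in the other NWAT nuclei, and those of the stromal, macrophage, mesothelial, B cell, T cell and mural lists were 8.68%, 8.30%, 4.58%, 6.07%, 4.56% and 25.2%. The red cell list stood at 37.1% and the skeletal muscle list at 41.9%. The Schwann list was higher in the adipocyte nuclei, at 169%, through Scn7a, a sodium channel gene with 223 CPM, while Sox10 had 0.210 CPM. Of 8 kidney tubule markers 5 had no count at all, as had 4 of 7 adrenal cortex and 4 of 5 chromaffin markers. The summed levels of the kidney and chromaffin lists were 1.13 and 0.0838 CPM. That of the adrenal cortex list was 85.9 CPM, 390% of its level in the other NWAT nuclei, and came mostly from Mc2r, described below.

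The NWAT adipocyte nuclei were the most deeply counted of the series, with a median of 3294 UMIs, against 2144 in SWAT, 2550 in EWAT, 1557.5 in MWAT and 2094 in HWAT and against 1925 in the other NWAT nuclei. They held 23866386 UMIs, against 15414442 in SWAT, 25780619 in EWAT, 7790170 in MWAT and 3981220 in HWAT. The same rule kept 54.4% of SWAT, 52.1% of EWAT, 23.4% of MWAT and 13.8% of HWAT nuclei. The share of free RNA, estimated as the median ratio of other-cell markers in the adipocyte nuclei to the same markers in the other nuclei of the library, was 5.22% in NWAT, against 8.11% in SWAT, 10.6% in EWAT, 17.3% in MWAT and 15.97% in HWAT. The rule itself kept only nuclei with at most 1 other-cell UMI whatever their depth. The free RNA estimate is therefore not independent of the rule or of depth, and their part in its differences between libraries was not tested. Another library shared 211 of the NWAT cell barcodes (1.65%). With 1 library per depot there is no replicate check: intervals are exact 95% Poisson or binomial limits that cover counting error only, and no statistical test was run.

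The genes that set NWAT adipocyte nuclei farthest above every other depot were those of the muscle contractile apparatus. By the lower limit of the ratio to the highest other depot the first 12 were Tnnt3, Mylpf, Tnni2, Myh4, Tnnc2, Mylk4, Ckm, Ttn, Trdn, Acta1, Atp2a1 and Ryr1, which encode troponins, myosins, creatine kinase and the calcium release machinery of skeletal muscle. Tnnt3 had 131 CPM in NWAT adipocyte nuclei, against 0.195 in SWAT, 0.116 in EWAT, 0.513 in MWAT and 1.26 in HWAT, and 347 CPM in the other NWAT nuclei. All 12 were higher in the other NWAT nuclei than in the adipocyte nuclei. The muscle UMIs were concentrated: 258 adipocyte nuclei (3.80%) with at least 3 of them held 76.7% of the 12048 muscle UMIs, and 308 of the other NWAT nuclei (5.14%) had as many, against at most 6 adipocyte nuclei in any other depot. Without nuclei holding at least 3 muscle or 3 stromal UMIs, 11 of the 12 genes were still higher in NWAT than in every other depot, with Tnni2 at 29.4 and Tnnt3 at 28.3 times the highest of them. Mylpf stood at 20.9, Myh4 at 15.1, Tnnc2 at 13.6, Acta1 at 6.72, Ckm at 5.84, Trdn at 3.60 and Atp2a1 at 3.30 times it. Ttn and Mylk4 were at 1.95 and 1.81 times it, and Ryr1 at 0.806 times. Muscle UMIs were counted over Ttn, Neb, Ckm, Acta1, Myh1, Myh2, Myh4 and Ryr1. A fall of Ttn, Ckm, Acta1, Myh4 and Ryr1 is therefore built into this removal. The other genes of the 12 were not used to choose the removed nuclei.

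Outside these muscle genes, NWAT adipocyte nuclei resembled those of EWAT and SWAT most and those of HWAT least. Of 17880 genes with at least 20 counts over the 5 depots, called measured here, 745 (4.17%) were 2-fold or more higher in NWAT than the mean of the other 4 on the log2 scale and 2621 (14.7%) were 2-fold or more lower, around a median log2 difference of 0.00. The counts of higher and lower list members given below are to be read against these shares of all measured genes. Over the 5628 genes with at least 100 counts in each depot, 4.62% differed 2-fold or more from EWAT, 5.08% from SWAT, 7.18% from MWAT and 23.4% from HWAT. The split between higher and lower calls depended on free RNA: when its estimated share was subtracted from each depot, 1584 genes were higher and 1387 lower, so higher calls made up 53.3% in place of 22.1%, and the median over all genes moved to 0.25.

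**Figure D1:**
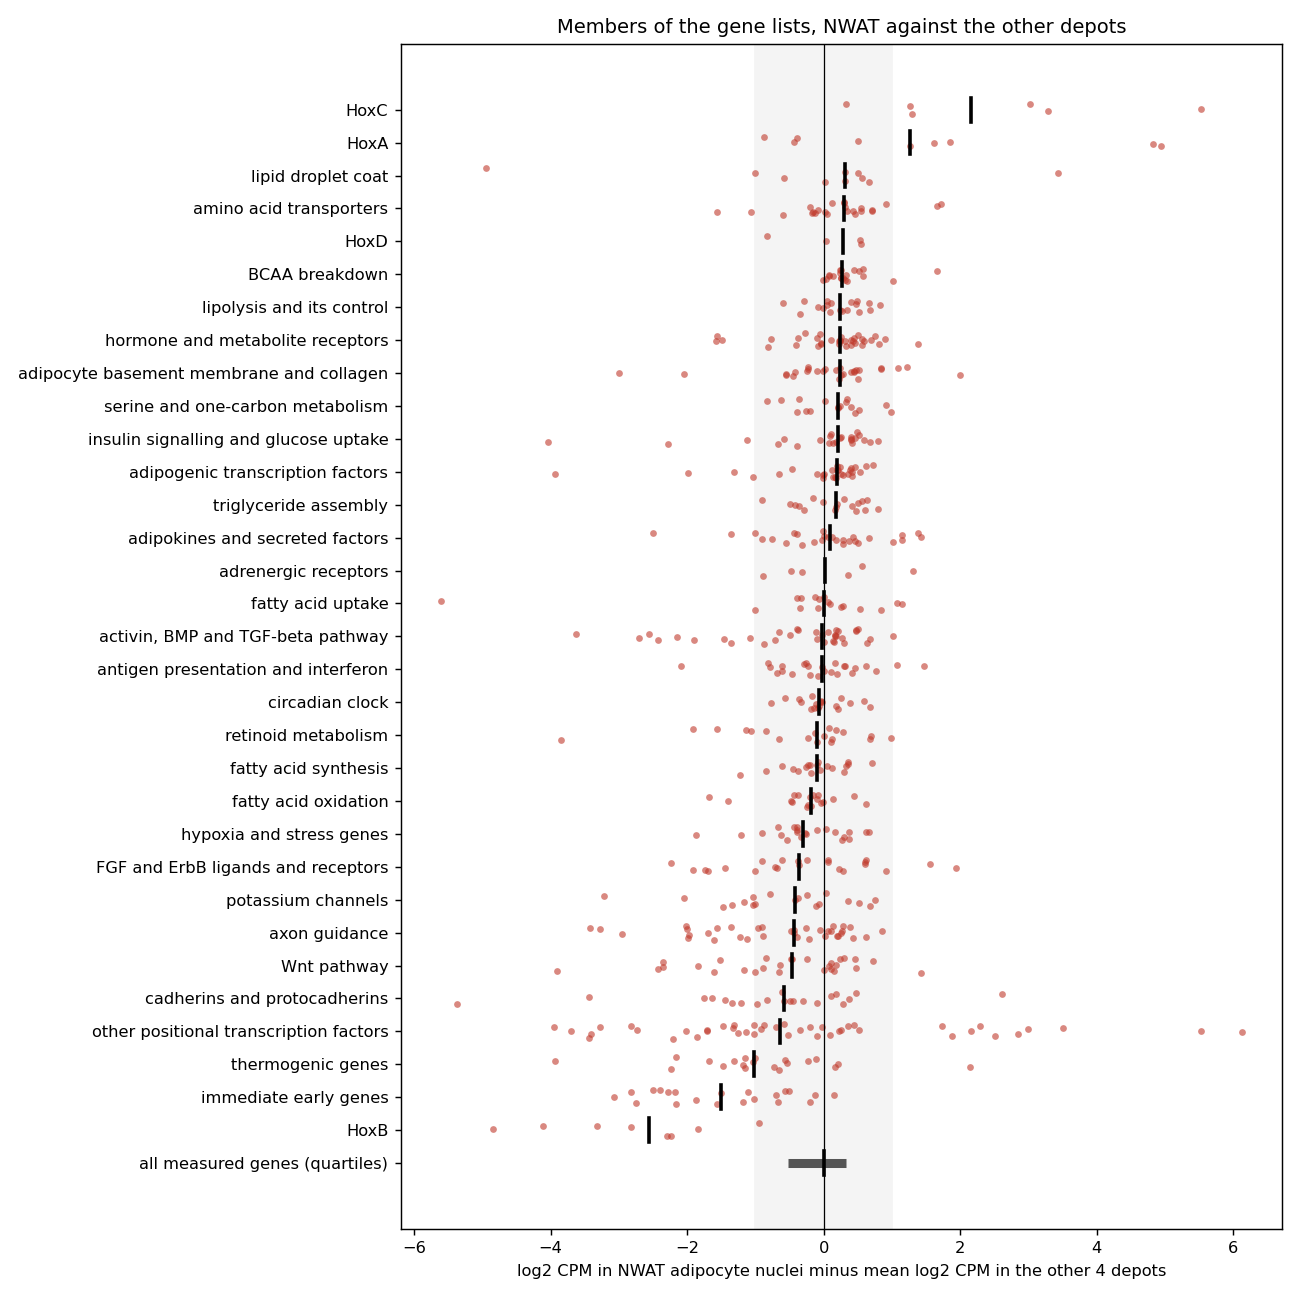
Log2 CPM in NWAT adipocyte nuclei minus the mean log2 CPM of the other 4 depots for members of the function lists, rule markers left out: each point is a gene, each bar a list's median, the shaded band lies within 2-fold and the lowest row gives the median and quartiles of all measured genes. HoxC and HoxA have the highest medians (2.15 and 1.26), and HoxB, the immediate early genes and the thermogenic genes the lowest (-2.56, -1.50 and -1.03).

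The Hox clusters are considered first among the positional genes. Later HoxA and HoxC genes were higher in NWAT and SWAT adipocyte nuclei than in the other depots, while HoxB genes were lower in NWAT than in SWAT, EWAT and MWAT, and NWAT was the lowest of all 5 depots for 4 of 8. Hox proteins are transcription factors whose order along each cluster follows their domains from head to tail in the embryo. Of the 9 HoxA genes measured 5 were 2-fold or more higher in NWAT and none lower (median log2 difference 1.26). Of the 6 HoxC genes 5 were higher and none lower (median 2.15), and of the 8 HoxB genes none was higher and 7 lower (median -2.56). With a depot of no counts taken at 3 counts, these medians were 1.01, 1.85 and -2.90. NWAT and SWAT were the 2 highest depots for 5 of 9 HoxA and 5 of 6 HoxC genes, against 6.92% of all measured genes.

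Hoxa9 had 73.5 CPM (70.1 to 77.0) in NWAT, against 64.3 in SWAT, 2.44 in EWAT, 0.257 in MWAT and 0.754 in HWAT. NWAT was 1.14 times SWAT (1.06 to 1.24) and the other depots lay far below both. Hoxa10 had 12.9 CPM in NWAT, against 15.1 in SWAT and 0.233 in EWAT, with no count in MWAT or HWAT. Hoxc8 had 77.4 CPM (73.9 to 81.0) in NWAT, against 52.5 in SWAT, 35.7 in EWAT and 16.8 in MWAT, with no count in HWAT. Hoxc8 thus formed a descending series over the depots, in contrast to the near absence of Hoxa9 outside NWAT and SWAT. Hoxc9 stood at 15.4 CPM in NWAT, below the 23.9 CPM of SWAT, and at 6.25 in EWAT, 0.642 in MWAT and none in HWAT. In thinned nuclei 7.07% of NWAT adipocyte nuclei had a Hoxa9 UMI, against 3.23% of NWAT nuclei of endothelial type, and for Hoxc8 the shares were 7.36% and 0.179%.

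Hoxb4 had 1.17 CPM (0.780 to 1.70) in NWAT, against 18.6 in SWAT, 15.98 in EWAT, 38.6 in MWAT and 15.6 in HWAT. Hoxb2 had 4 counts in NWAT (0.168 CPM), against 6.94 CPM in SWAT, 7.10 in EWAT, 15.1 in MWAT and 1.005 in HWAT. NWAT was thus the lowest depot for both, and Hoxb4 was first among all genes by the rule for low genes. Hoxb3 followed with 1.97 CPM in NWAT, against 12.6 to 44.2 CPM elsewhere. The annotated antisense transcript Hoxb3os overlaps Hoxb3 and Hoxb2 on the opposite strand, and whether this affected the counts of these genes was not tested. The HoxA and HoxC shifts, but not that of HoxB, were present in the other nuclei of the library. The median HoxB log2 difference was 0.40 in the other NWAT nuclei and 0.21 in nuclei of endothelial type. The HoxA median was 0.62 in the other NWAT nuclei and 1.60 over the 5 genes measured in nuclei of endothelial type. The HoxC median was 2.21 in the other NWAT nuclei, close to the 2.15 of the adipocyte nuclei, and -0.84 over the 2 genes measured in nuclei of endothelial type. The signs of the HoxA, HoxB and HoxC medians held under all 16 processing alternatives.

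**Figure D2:**
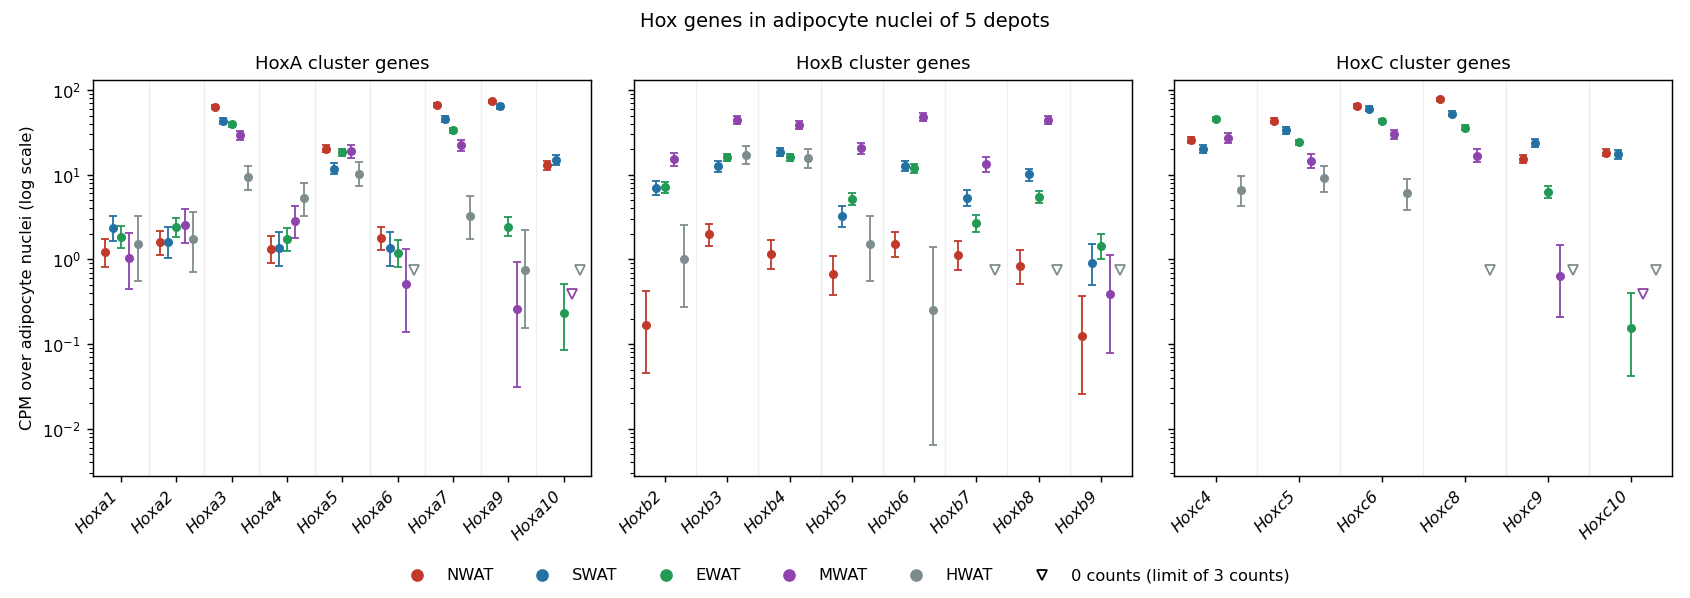
CPM (log axis) of the measured HoxA, HoxB and HoxC genes in adipocyte nuclei of each depot, as points with 95% exact Poisson intervals, and as open triangles at the limit of 3 counts where a depot had none. Hoxa9 and Hoxc10 are high in NWAT and SWAT, and Hoxb4 has 1.17 CPM in NWAT, below every other depot.

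Among 44 other positional transcription factors measured, which include Hoxc10, 10 were 2-fold or more higher in NWAT and 19 lower (median -0.64, or 0.27 after subtraction of free RNA). En1, a patterning factor of the dermomyotome and limb, had 3.85 CPM in NWAT, against 5.19 in SWAT and 0.310 in EWAT, with no count in MWAT or HWAT. Tbx15, a T-box factor of subcutaneous fat, had 16.9 CPM in NWAT, against 76.0 in SWAT, 2.95 in EWAT, 2.05 in MWAT and 1.26 in HWAT. For both genes SWAT ranked first, and NWAT was next. Pax3, a marker of the myogenic lineage, differed from them. It had 137 counts in NWAT (5.74 CPM), against 1 in SWAT and 1 in MWAT and none in EWAT or HWAT. In the other NWAT nuclei it stood at 6.38 CPM. At least 3 muscle UMIs were held by 258 NWAT adipocyte nuclei, and the Pax3 counts are not separated here from that muscle RNA.

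Beyond muscle genes, 4 genes with the highest ratios were picked after their values were seen. Ofcc1, whose human counterpart lies in a region linked to orofacial clefts, had 42.5 CPM (39.9 to 45.2) in NWAT, against 6.29 in SWAT, 2.48 in EWAT, 2.44 in MWAT and 1.26 in HWAT. Its ratio to SWAT, the next depot, was 6.75 (5.48 to 8.40), and the other NWAT nuclei had 5.27 CPM. In thinned nuclei 3.76% of NWAT adipocyte nuclei had an Ofcc1 UMI, against none of 558 endothelial-type nuclei (0% to 0.659%), so the gene was both depot-high and adipocyte-high in this library. Ptchd4, a patched-domain membrane protein, had 57.3 CPM in NWAT, against 8.37 in SWAT, 20.4 in EWAT, 3.98 in MWAT and 1.26 in HWAT. Arfgap2, a GTPase-activating protein of COPI vesicles, had 193 CPM (187 to 198) in NWAT, against 64.3 in SWAT, 63.8 in EWAT, 53.1 in MWAT and 71.8 in HWAT. The other 4 depots were thus close to each other for Arfgap2, with NWAT 2.68 times the highest of them (2.38 to 3.03). Cd1d1, which presents lipid antigens to natural killer T cells, had 691 CPM in NWAT, against 255 in SWAT, 251 in EWAT, 219.5 in MWAT and 277 in HWAT. Cd1d1 was also higher in NWAT nuclei of endothelial type (log2 difference 1.93), and the part of this in the adipocyte result was not tested. That difference rested on 62 counts in NWAT, against 4 in SWAT, 40 in EWAT, 8 in MWAT and 1 in HWAT.

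**Figure D3:**
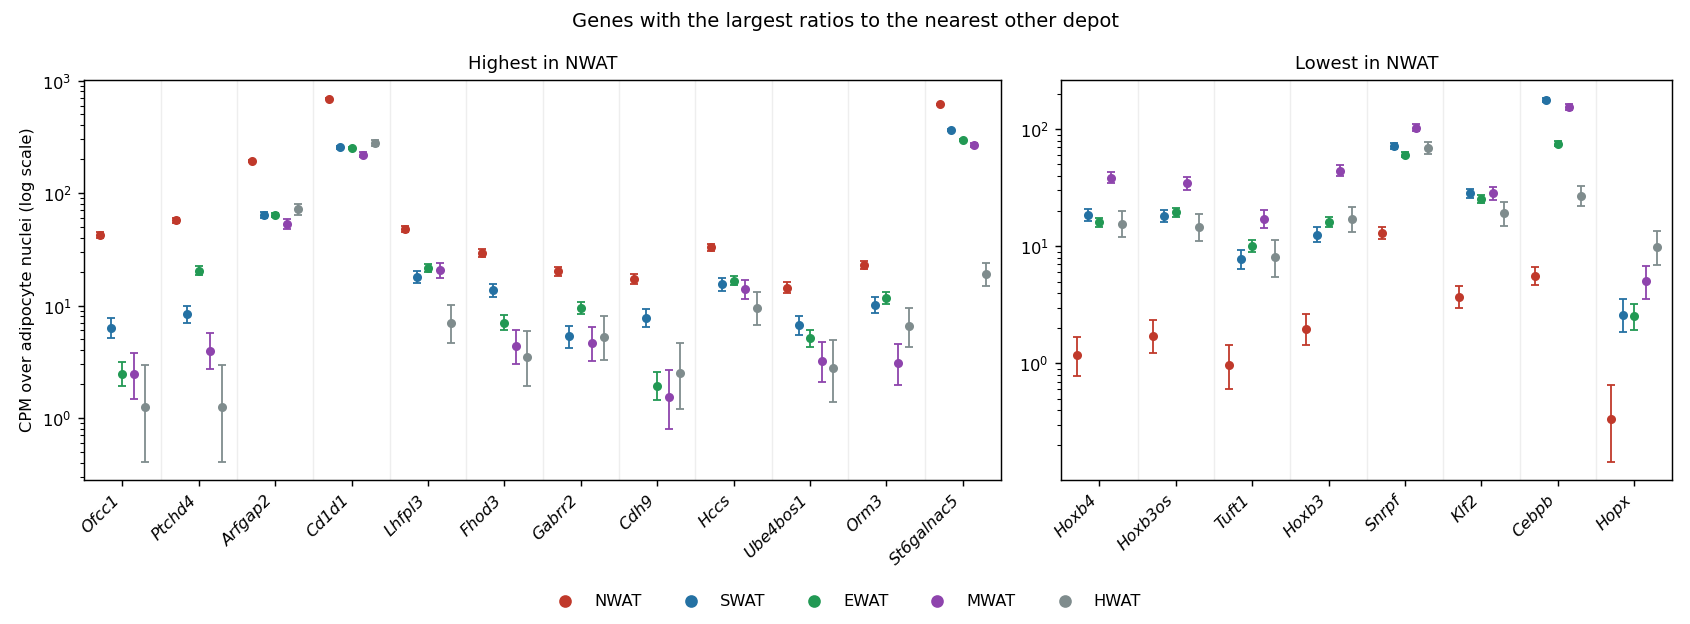
CPM (log axis) in adipocyte nuclei of each depot, as points with 95% exact Poisson intervals, for the 12 genes with the highest ratios outside the muscle genes and the 8 lowest genes. NWAT lies above all other depots for Ofcc1 (42.5 CPM) and below them for Cebpb (5.61 CPM).

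The lowest genes outside the HoxB cluster were Tuft1, Snrpf, Klf2, Cebpb and Hopx. Cebpb, a leucine zipper factor that acts early in adipogenesis and in the acute phase response, had 5.61 CPM (4.70 to 6.65) in NWAT, against 178 in SWAT, 75.3 in EWAT, 153 in MWAT and 27.1 in HWAT. Klf2, a zinc finger factor, had 3.69 CPM in NWAT, against 19.1 to 28.4 CPM in the other depots. Snrpf, a core spliceosome protein, had 12.99 CPM in NWAT, against 60.4 to 103 CPM elsewhere. Unlike HoxB, these differences were also present in other nuclei of the same library: the log2 difference in nuclei of endothelial type was -3.28 for Cebpb, -1.90 for Klf2 and -1.82 for Snrpf. The sign for Klf2 in adipocyte nuclei depended on free RNA, with a log2 difference of -2.75 as counted and 2.53 after its subtraction.

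Immediate early genes, which are switched on rapidly after a stimulus, were low as a group. Of 21 measured 14 were 2-fold or more lower in NWAT adipocyte nuclei and none higher (median -1.50), and NWAT was the lowest depot for 13 of them, against 18.3% of all measured genes. Jund had 6.41 CPM in NWAT, against 99.2 in SWAT, 60.9 in EWAT, 70.5 in MWAT and 19.6 in HWAT. Fos had 3.52 CPM in NWAT, against 38.9 in SWAT, 7.37 in EWAT, 5.65 in MWAT and 53.8 in HWAT. Egr1 had 1.93 CPM in NWAT, against 8.88 to 20.5 CPM in the others. The list was also lower in the other NWAT nuclei (median -0.94) and in those of endothelial type (median -1.15). The part of the library as a whole in these values was not tested.

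The genes of fat storage and release were slightly higher in NWAT adipocyte nuclei as a group, with few past 2-fold. Of 20 adipocyte genes outside the rule, 1 was 2-fold or more higher and none lower (median 0.30), but the same list had a median of 1.08 in the other NWAT nuclei and 1.06 in those of endothelial type. The 1 gene was Lpl, lipoprotein lipase, which frees fatty acids from circulating triglyceride. Lpl had 3107 CPM (3084 to 3129) in NWAT, against 1739.9 in SWAT, 2564 in EWAT, 1281 in MWAT and 829 in HWAT. Angptl4, a secreted inhibitor of that enzyme, had 486 CPM in NWAT, against 265 in SWAT, 314 in EWAT, 138 in MWAT and 205 in HWAT. The enzyme and its inhibitor were thus both highest in NWAT. Their log2 differences, 1.07 for Lpl and 1.14 for Angptl4, were within 2-fold without 1 depot: 0.80 for Lpl without HWAT and 0.92 for Angptl4 without MWAT. In endothelial-type nuclei the log2 differences of Lpl and Angptl4 were 1.72 and 3.00, larger than in the adipocyte nuclei. Of 17 fatty acid uptake genes, which hold both, 2 were higher and 2 lower (median 0.00).

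Genes of the lipid droplet and of lipolysis were slightly higher in NWAT adipocyte nuclei, as they were in other nuclei of the library. NWAT was the highest depot for 6 of 10 droplet genes and 7 of 19 lipolysis genes, against 20.7% of all measured genes. Of the droplet genes 1 was 2-fold or more higher and 2 lower (median 0.31), and of the lipolysis genes none was past 2-fold (median 0.24). The median over the 5628 genes with at least 100 counts in each depot was 0.09. In the other NWAT nuclei the droplet and lipolysis medians were 0.81 and 0.56, and in those of endothelial type 1.13 and 0.26. The adipocyte nuclei held 62.3% of the filtered UMIs in NWAT, against 60.3% in SWAT, 58.8% in EWAT, 26.2% in MWAT and 17.2% in HWAT. The part of adipocyte RNA among the other nuclei in these medians was not tested. Cidec had 2946 CPM in NWAT, against 1932 in SWAT, 1806 in EWAT, 1614 in MWAT and 2129 in HWAT. Mgll, the monoglyceride lipase, had 782 CPM in NWAT, against 451 in SWAT, 607 in EWAT, 429.6 in MWAT and 325 in HWAT. Lipe, the hormone-sensitive lipase, had 1152 CPM in NWAT, against 965 in SWAT, 870.1 in EWAT, 836 in MWAT and 652 in HWAT. The droplet gene past 2-fold, Fitm1, had 1.97 CPM in NWAT, and its log2 difference of 3.44 was 2.12 without nuclei holding muscle or stromal UMIs. Among 18 genes of triglyceride assembly none was past 2-fold (median 0.18). Pck1, which supplies glycerol phosphate, had 1492 CPM in NWAT, against 1312 in SWAT, 944 in EWAT, 1027 in MWAT and 961 in HWAT.

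Fatty acid synthesis was not higher in NWAT. Of 19 genes none was 2-fold or more higher and 1, Insig1, lower (median -0.10). Insig1, the sterol-regulated anchor that holds back SREBP, had 46.6 CPM in NWAT, against 101 in SWAT, 44.5 in EWAT, 153 in MWAT and 206 in HWAT. Acaca, acetyl-CoA carboxylase, had 1219 CPM in NWAT, against 1456 in SWAT, 636 in EWAT, 2846 in MWAT and 1039.9 in HWAT. Slc25a1, the citrate carrier, had 48.2 CPM in NWAT, against 104 in SWAT, 33.1 in EWAT, 168 in MWAT and 98.5 in HWAT. For all 3 genes NWAT lay closer to EWAT than MWAT did, and below SWAT and MWAT. Of 18 fatty acid oxidation genes none was higher and 2 were lower (median -0.19). The median of the synthesis list was 0.06 without MWAT and that of the oxidation list 0.08 without HWAT, and Insig1 was within 2-fold without HWAT (-0.92).

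**Figure D4:**
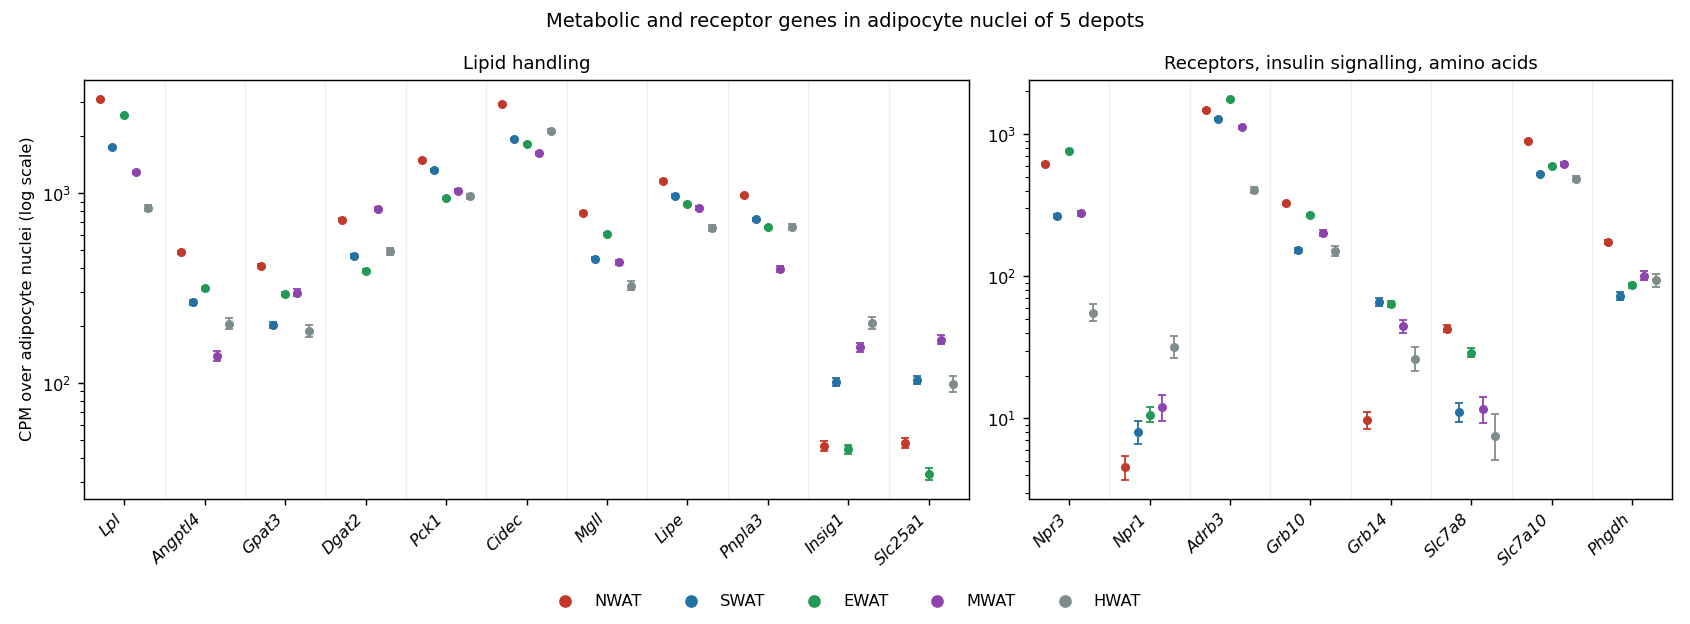
CPM (log axis) of genes of lipid handling, receptors, insulin signalling and amino acids in adipocyte nuclei of each depot, as points with 95% exact Poisson intervals. Lpl (3107 CPM) and Angptl4 (486 CPM) are highest in NWAT, and Grb14 (9.68 CPM) is lowest there.

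Thermogenic genes were lower in NWAT adipocyte nuclei than in the mean of the other depots. Of 20 measured 11 were 2-fold or more lower and 1 higher (median -1.03, and -0.51 when HWAT was left out of the mean). NWAT was the lowest depot for 2 of them, against 18.3% of all measured genes. The summed CPM of the list was 404 in NWAT, against 702 in SWAT, 299 in EWAT, 475 in MWAT and 2478 in HWAT. Ucp1, the uncoupling protein of brown fat, had 1 count in NWAT, against 2.59 CPM in SWAT, none in EWAT or MWAT and 260 CPM in HWAT. Cox8b, a respiratory subunit of brown fat and muscle, had 14.96 CPM in NWAT, against 109.8 in SWAT, 8.07 in EWAT, 74.6 in MWAT and 310.5 in HWAT. Prdm16, a cofactor of the brown program, had 7.67 CPM in NWAT, against 64.2 in SWAT, 5.24 in EWAT, 7.32 in MWAT and 54.5 in HWAT. Its log2 difference of -1.32 was -0.74 without SWAT and -0.82 without HWAT. For these 3 genes NWAT was nearer to EWAT than to SWAT or HWAT. The gene past 2-fold upward was Ckmt2, a mitochondrial creatine kinase of muscle, with 3.44 CPM in NWAT and a log2 difference of 2.15, which was 0.63 without nuclei holding muscle or stromal UMIs.

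Among 29 adipogenic transcription factors none was 2-fold or more higher and 4 lower, namely Cebpb, Cebpd, Prdm16 and Zfp521 (median 0.20). Zfp521, a zinc finger factor that restrains adipogenesis, had a log2 difference of -1.03, which was -0.79 without MWAT. Pparg, the master factor of adipocytes, had 1586 CPM in NWAT, against 1750.3 in SWAT, 1528 in EWAT, 1079 in MWAT and 1106 in HWAT. Cebpa, its partner in mature adipocytes, had 96.0 CPM in NWAT, against 111 to 171 CPM in the other depots. Cebpd, another C/EBP factor that acts early in adipogenesis, had 8.25 CPM in NWAT, against 57.5 in SWAT, 50.9 in EWAT, 46.1 in MWAT and 8.54 in HWAT.

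Receptors of hormones and metabolites differed little as a list, with 1 of 35 higher and 3 lower (median 0.24). The higher one was Npr3, the natriuretic peptide clearance receptor, which had 614 CPM in NWAT, against 267 in SWAT, 760.0 in EWAT, 277 in MWAT and 55.5 in HWAT. Npr1, the signalling receptor for the same peptides, had 4.53 CPM in NWAT, against 7.98 in SWAT, 10.6 in EWAT, 11.9 in MWAT and 31.9 in HWAT. The pair thus ran in opposite directions between NWAT and HWAT. Adrb3, the main lipolytic receptor of mouse adipocytes, had 1479 CPM in NWAT, against 1282 in SWAT, 1757 in EWAT, 1119 in MWAT and 405 in HWAT. Neither Npr3 nor Adrb3 was highest in NWAT. The 2-fold call of Npr3 rested on 1 depot, with a log2 difference of 0.68 without HWAT.

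Of 24 genes of insulin signalling and glucose uptake none was 2-fold or more higher and 3 were lower (median 0.21). Grb14, an adaptor that blocks the insulin receptor, had 9.68 CPM in NWAT, against 65.7 in SWAT, 63.8 in EWAT, 44.4 in MWAT and 26.4 in HWAT. Hk2, the insulin-regulated hexokinase, had 438 CPM in NWAT, against 948 in SWAT, 674 in EWAT, 1015 in MWAT and 1279.8 in HWAT. NWAT was the lowest depot for both. Enpp1 was the third, with 1 count in NWAT. Hk2 was at the edge of 2-fold, with a log2 difference of -1.12, or -0.98 without HWAT. The receptor and transporter themselves lay within the range of the other depots: Insr had 416 CPM in NWAT, against 198 to 463, and Slc2a4 had 105 CPM in NWAT, against 57.1 to 114.

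Of 20 genes that break down branched-chain amino acids 2 were 2-fold or more higher in NWAT and none lower (median 0.27), and NWAT was the highest depot for 10. The list was higher by more in the other NWAT nuclei (median 0.50) and in those of endothelial type (median 0.38). Both of those, Bcat1 and Abat, were lower in NWAT than in EWAT, at 3.44 and 16.9 CPM in NWAT against 4.38 and 23.5 CPM in EWAT. Their log2 differences were 0.30 for Bcat1 without MWAT and 0.54 for Abat without HWAT. Of 17 serine and one-carbon genes none was past 2-fold (median 0.21). Phgdh, the first enzyme of serine synthesis, had 174 CPM in NWAT, against 72.8 in SWAT, 86.2 in EWAT, 101 in MWAT and 93.7 in HWAT, which made NWAT 1.73 times the highest other depot. Of 24 amino acid transporters 2 were higher and 2 lower (median 0.29). Slc7a8, a carrier of large neutral amino acids, had 42.8 CPM in NWAT, against 11.1 in SWAT, 29.1 in EWAT, 11.6 in MWAT and 7.54 in HWAT. Slc38a2, a sodium-coupled carrier of small neutral amino acids, was among the lower ones, with 85.0 CPM in NWAT. Its log2 difference was -1.06, or -0.91 without HWAT.

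Of 28 adipokines and secreted factors 5 were higher and 3 lower (median 0.09). Lep, which encodes leptin, had 158 CPM in NWAT, against 105 in SWAT, 106 in EWAT, 94.3 in MWAT and 164 in HWAT. Agt, angiotensinogen, had 55.1 CPM in NWAT, against 5.13 in SWAT, 121 in EWAT, 31.8 in MWAT and 19.3 in HWAT. Of 28 genes of the adipocyte basement membrane and collagen 3 were higher and 2 lower (median 0.23). Col5a3, a chain of collagen V, had 223 CPM in NWAT, against 103 in SWAT, 191 in EWAT, 85.0 in MWAT and 5.78 in HWAT, and in thinned nuclei 18.3% of NWAT adipocyte nuclei had a Col5a3 UMI, against 1.97% of NWAT nuclei of endothelial type. Col15a1, a basement membrane collagen, had 91.9 CPM in NWAT, against 38.6 in SWAT, 92.8 in EWAT, 51.2 in MWAT and 13.1 in HWAT. NWAT and EWAT were alike for Col15a1, and both lay above HWAT for all 3 genes Agt, Col5a3 and Col15a1. Without HWAT the log2 difference was 0.91 for Col5a3 and 0.69 for Col15a1 and the matrix median -0.01, and without SWAT that of Agt was 0.39.

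Of 23 FGF and ErbB ligands and receptors 2 were higher and 6 lower (median -0.37, or 0.59 after subtraction of free RNA). The higher ones were the intracellular FGF homologous factors, which bind sodium channels. Fgf14 had 424 CPM in NWAT, against 306 in SWAT, 46.4 in EWAT, 365 in MWAT and 82.6 in HWAT. Fgf13 had 29.4 CPM in NWAT, against 17.1 in SWAT, 13.9 in EWAT, 12.97 in MWAT and 1.005 in HWAT. NWAT was the highest depot for both. Of 35 genes of the activin, BMP and TGF-beta pathway 1 was higher and 9 lower (median -0.02), the higher one being Bmp3 at 19.3 CPM in NWAT, against 18.5 in SWAT, 13.3 in EWAT, 9.37 in MWAT and 3.52 in HWAT (log2 difference 1.01, or 0.54 without HWAT).

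Against the other NWAT nuclei, 2073 of 16689 genes (12.4%) were 2-fold or more higher in the adipocyte nuclei and 5224 (31.3%) lower; nuclei were chosen by expression, so nothing is read from these counts. Outside the rule and at 50 CPM or more, the 10 genes with the highest fold were Mageb18, Ctcflos, Pkd2l2, Sntb1, Sctr, Snhg11, Smoc1, St6galnac5, Rhof and Mc2r. Mageb18, an X-linked gene of the MAGE family, had 286 CPM in NWAT adipocyte nuclei and 38.5 CPM in the other NWAT nuclei. Mageb18 also differed between depots, at 19.0 CPM in SWAT, 264 in EWAT, 33.4 in MWAT and 1.26 in HWAT. Mc2r, the corticotropin receptor, had 80.1 CPM in NWAT, against 93.2 in SWAT, 156 in EWAT, 61.1 in MWAT and 24.6 in HWAT. Mc2r also stands in the adrenal cortex list, of which the steroidogenic enzymes Cyp11a1, Cyp11b1 and Hsd3b1 and the factor Nr5a1 had no count in these nuclei, and it was lower in NWAT than in SWAT and EWAT.

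Within NWAT, most genes had a variance-to-mean ratio between adipocyte nuclei little above that of counting alone. For the same relative spread this ratio rises with a gene's mean, so genes of few UMIs stay near 1. A ranking by it favours abundant genes and does not order genes by relative spread. In 6617 nuclei thinned to 1000 UMIs (166 shallower ones were left out), the variance-to-mean ratio had a median of 1.14 over the 679 genes with a mean of at least 0.2 UMIs, where random counting gives 1, and 22 genes exceeded 2. The 10 highest of these outside the rule were Malat1 at 21.6, Nnat at 16.7, Cfd at 14.2, Fabp4 at 7.23, Car3 at 4.83, Dcn at 3.80, Mageb18 at 3.05, Thrsp at 2.51, Acaca at 2.49 and Scd1 at 2.49. Nnat, an imprinted gene that encodes the membrane proteolipid neuronatin, had a mean of 8.93 UMIs per thinned nucleus. No Nnat UMI was seen in 27.6% of the nuclei, against the 0.0132% that a Poisson count of that mean gives, while the upper quartile was 14 and the highest nucleus had 79. Without thinning, an Nnat UMI was seen in 88.2% of the NWAT adipocyte nuclei. At the thinned depth Nnat was thus unseen in many nuclei and abundant in others. The same spread was present in the other depots, with ratios of 14.8 in SWAT, 11.3 in EWAT, 12.3 in MWAT and 17.0 in HWAT, and 22.7% to 48.6% of nuclei at 0. Nnat UMIs were seen in 33.3% of NWAT endothelial-type nuclei after thinning, against 71.9% of the adipocyte nuclei.

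Cfd encodes complement factor D (adipsin), Fabp4 the adipocyte fatty acid binding protein and Car3 a carbonic anhydrase abundant in fat. Across the thinned nuclei, as a description within 1 library, Pearson's r was 0.51 between Cfd and Fabp4 and 0.38 between Cfd and Car3. Malat1, a nuclear RNA, correlated with the mitochondrial share at -0.53, Fabp4 at 0.40 and Cfd at 0.31. The part of the mitochondrial share in their spread, and in the r between Cfd and Fabp4, was not tested. The r of Nnat was -0.08 with the mitochondrial share and 0.04 with depth. The ratio of Dcn, a stromal proteoglycan, was 2.10 without nuclei holding muscle or stromal UMIs. Thrsp, Acaca and Scd1 belong to fatty acid synthesis. Their r was 0.18 for Thrsp and Acaca, 0.20 for Thrsp and Scd1 and 0.11 for Acaca and Scd1. With Fasn, r was 0.31 for Thrsp, 0.21 for Acaca and 0.25 for Scd1. With the mitochondrial share it was 0.16 for Thrsp, -0.06 for Acaca, 0.25 for Scd1 and 0.22 for Fasn.

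**Figure D5:**
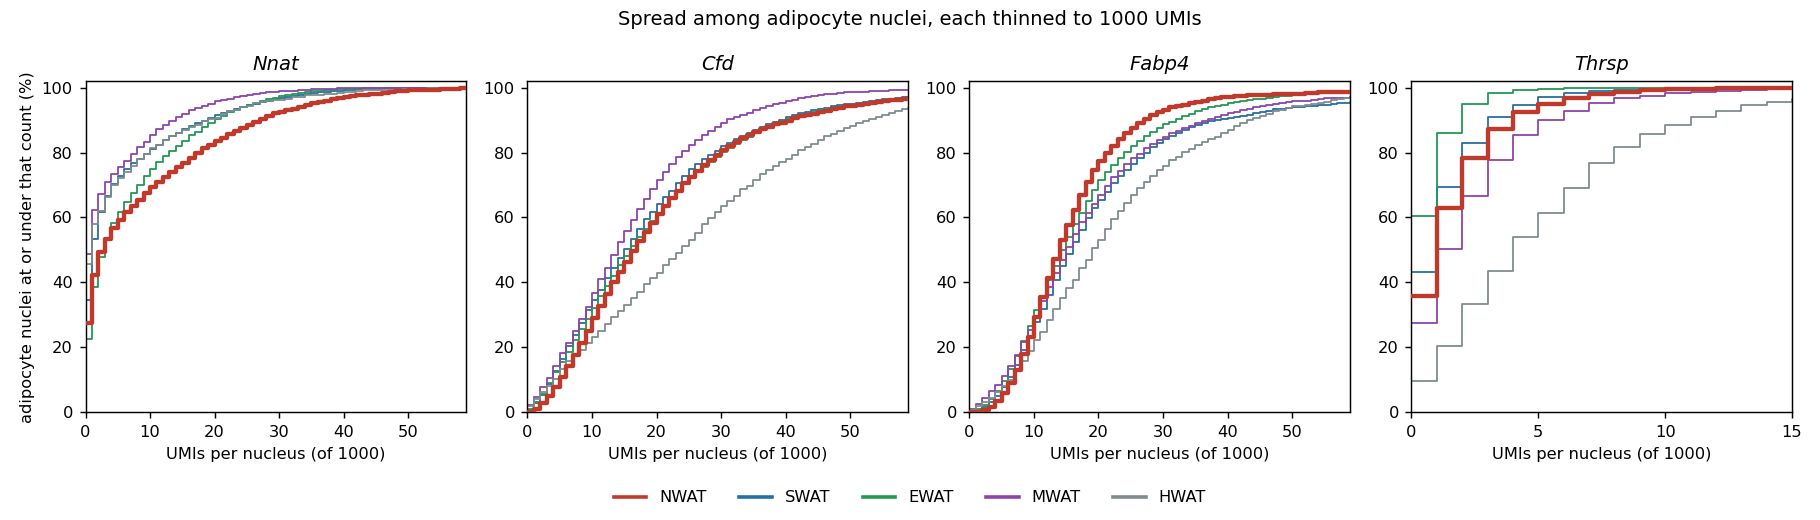
Cumulative share of adipocyte nuclei (percent) at or under each UMI count of Nnat, Cfd, Fabp4 and Thrsp, each nucleus thinned to 1000 UMIs, with a line per depot and NWAT thickest. The NWAT line for Nnat starts at 27.6% of nuclei with no UMI and is still rising beyond its upper quartile of 14 UMIs.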

How the data were processed

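The deposited files hold raw UMI counts per gene and nucleus, which the authors produced in Cell Ranger (version 6.0.1, per the file headers); the submitters' processing notes name mm10 and Seurat, and the annotation release is not given in the sources used here. Of 12786 NWAT barcodes 12780 passed at least 200 genes and at most 10% mitochondrial UMIs, and no barcode had under 500 UMIs. The members and gene lists were chosen with earlier results of these data known. Counts were summed over the adipocyte nuclei of each depot and scaled to 1000000 UMIs (CPM); the log2 difference is log2 CPM in NWAT (0.5 counts added) minus the mean log2 CPM of the other 4 depots, over genes with at least 20 counts in all. Ratios to the nearest depot take a depot under 3 counts at 3 counts, with exact conditional 95% intervals. With 1 pooled library per depot no test was run, and intervals cover counting error only; the summed depth of 3981220 UMIs in HWAT limits the precision for genes of few counts.

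Genes were named by rules on size: the 12 highest and 8 lowest by the limit of the ratio to the nearest depot, the 10 highest over the other NWAT nuclei, the 10 with the highest variance-to-mean ratio, and the extremes of each list. The 4 genes described after the muscle genes, and the further list members given with values, were chosen after their values were seen. The steps were tested on simulated data. Coordinates come from GENCODE vM21 on GRCm38, where 824 of 824 gene IDs matched, and promoters from RefSeq, where 149 of 209 named genes had a start. Python 3.11.15 was used with numpy 2.4.6, scipy 1.17.1, pandas 2.3.3 and scikit-learn 1.9.0. Alternatives were stricter rules, removal of deep nuclei or of simulated doublets, thinning, subtraction of free RNA, another scaling, other count minimums and leaving out each depot; removal of nuclei with muscle or stromal UMIs was added after seeing the data. Simulated doublets were removed only in that alternative, where they made up 5.60% of the NWAT adipocyte nuclei.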

Additional observations from a re-analysis of the deposited data

How the results depend on the processing

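No paired analysis was possible because each depot was 1 pooled library. The share of NWAT nuclei that met the rule was 53.1%, and it was 51.4% with at least 10 marker UMIs, 47.4% with no other-cell UMI, 54.3% with at most 2% mitochondrial UMIs, 51.1% without the deepest 10% of nuclei, 55.8% without simulated doublets and 50.2% without nuclei holding muscle or stromal UMIs, the last chosen after seeing the data. Against 745 genes higher and 2621 lower, thinning gave 1669 lower, subtraction of free RNA 1584 higher and 1387 lower, a minimum of 100 counts 430 higher and 1372 lower, and a minimum of 1 count 1174 higher and 6082 lower. Among the ratios of high genes under these alternatives 200 moved by less than their interval, 39 moved by more and 1 turned. The last was that of Ryr1, to 0.806 without nuclei holding muscle or stromal UMIs. Ryr1 is itself among the genes by which those nuclei were removed. Among those of low genes 73 moved by less than their interval and 5 by more. A ratio to a depot left at 0 by the subtraction of free RNA has no value and is not counted. This was so for Klf2, whose log2 difference changed sign under that subtraction. Scd1, Cfd, Thrsp, Acaca and Mc2r, which lay near 0 on the log2 scale, changed sign under 1 to 5 alternatives. Low depth in HWAT and MWAT limits what can be seen of genes with few counts.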

Other observations

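Several lists of signalling and adhesion genes had more members 2-fold or more lower in NWAT adipocyte nuclei than higher. The same held for all measured genes, of which 14.7% were lower and 4.17% higher. The signs of the list medians depended on free RNA. Of 36 axon guidance genes none was higher and 13 were lower, with a median log2 difference of -0.43 as counted and 0.33 after subtraction of free RNA. Of 28 Wnt pathway genes 1 was higher and 9 lower, with medians of -0.47 and 0.24. Of 21 cadherins and protocadherins 1 was higher and 7 lower, with medians of -0.58 and 0.34. Of 19 potassium channel genes none was higher and 8 were lower, with medians of -0.42 and 0.48. The median over all measured genes was 0.25 after that subtraction. Slit2, a guidance ligand, had 4.94 CPM in NWAT adipocyte nuclei, against 10.1 in SWAT, 20.1 in EWAT, 98.97 in MWAT and 7.79 in HWAT, and 22.9 CPM in the other NWAT nuclei. Nrp2, a semaphorin and VEGF co-receptor, had 5.78 CPM in NWAT adipocyte nuclei, against 158 CPM in the other NWAT nuclei.

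Other lists had medians between -0.30 and 0.28. None of 19 circadian clock genes was past 2-fold (median -0.06), nor was any of 4 HoxD genes (median 0.28). Of 19 retinoid genes none was higher and 5 were lower (median -0.10), and of 22 hypoxia and stress genes none was higher and 2 were lower (median -0.30). Of 25 antigen presentation and interferon genes 2 were higher and 1 lower (median -0.03). H2-Q10, a class I-like gene, had 90.7 CPM in NWAT adipocyte nuclei, against 98.5 in SWAT, 7.33 in EWAT, 66.6 in MWAT and 72.3 in HWAT, so EWAT stood apart from the other depots. H2-T23, another class I-like gene, had 9.39 CPM in NWAT, against 63.6 in SWAT, 35.6 in EWAT, 32.7 in MWAT and 34.7 in HWAT, and was lowest in NWAT.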
